A study of Caenorhabditis elegans with 2 samples.

Results

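The genes described here encode the mitochondrial ribosome and the machinery that brings proteins into mitochondria, and the measurement was how strongly the DNA-binding protein GMEB-2 was found near their 5′ ends. Members were defined by symbol, with earlier results of these data known: protein-coding genes of the Ensembl 115 annotation (WBcel235) whose names begin with mrps-, mrpl-, tomm-, timm-, tin- or tim- and a number, plus ddp-1. This gave 85 of 19973 nuclear protein-coding genes. Of these, 70 encode mitochondrial ribosomal proteins (29 of the small subunit, mrps-, and 41 of the large subunit, mrpl-) and 14 encode import proteins. The remaining gene, tim-1, matches the naming pattern but encodes a relative of the nuclear protein Timeless, so it was kept as a member and placed in neither class.

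Mitochondria keep their own ribosomes, which translate the few proteins encoded in mitochondrial DNA, yet every protein of these ribosomes is encoded in the nucleus and must be imported. Import starts at the translocase of the outer membrane (TOM), where receptors pass a precursor to a channel. Small TIM chaperones carry hydrophobic precursors across the intermembrane space, and the TIM23 complex moves others through the inner membrane into the matrix. GMEB-2 belongs to the family of the glucocorticoid modulatory element binding proteins known from vertebrates.

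Chromatin immunoprecipitation followed by sequencing (ChIP-seq) was done on whole Caenorhabditis elegans embryos of strain OP622, with 2 biological replicates of 1 group. The strain carries the unc-119(tm4063) mutation on chromosome III and the integrated transgene wgIs622 (1 line), which encodes GMEB-2 carrying GFP-FLAG at its C terminus, and the precipitation used an antibody against GFP. Embryos were mixed sex, at the late embryonic stage 5 hours after synchronization by egg bleaching. All cells of the embryo were sampled together, so a strong peak in few cells and a weak peak in many cannot be told apart, and no untagged strain or other factor was analysed here.

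Each gene was given the strongest peak summit within a window that reached 1000 bp upstream and 500 bp downstream of the 5′ end, in each of 4 lists on build ce11. The authors' signal value of a peak, taken against a control, has its own scale in each list, so signals were compared only within a list and ranks (1 is the strongest) were set side by side. Each replicate list and the joint list made from both replicates held 30000 peaks and include background. The list passing the authors' irreproducible discovery rate (IDR) step held 634 peaks, which are the 634 strongest of the joint list, from a signal of 91.8 upward. The lists hold no read counts, so the depth behind each peak is unknown.

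A summit of the IDR list lay at 6 of the 85 members: the import genes ddp-1 and tomm-20, the large subunit genes mrpl-12, mrpl-23 and mrpl-39, and the small subunit gene mrps-25. This was 2 of 14 import genes (14.3%) and 4 of 70 ribosome genes (5.71%), where all nuclear protein-coding genes gave 2.22%. Within ranks 1 to 5000 of the joint list the counts were 5 of 14 import genes (35.7%) and 18 of 70 ribosome genes (25.7%), against 10.3% of all genes. In the whole joint list they were 10 of 14 (71.4%) and 44 of 70 (62.9%), against 40.2% of all genes. For a summit in both replicate lists the order of the classes turned, with 6 of 14 import genes (42.9%) and 36 of 70 ribosome genes (51.4%), against 25.2% of all genes. Each import gene is worth 7.14 percentage points of its class, and the difference between the classes was not tested, since genes are not replicates. Both classes lay above the background share in all 4 of these counts. The turned order did not hold where the strongest summits of the replicates had to lie within 200 bp of each other. That left 5 of 14 import genes and 20 of 70 ribosome genes, against 2902 of 19973 genes.

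**Figure D1:**
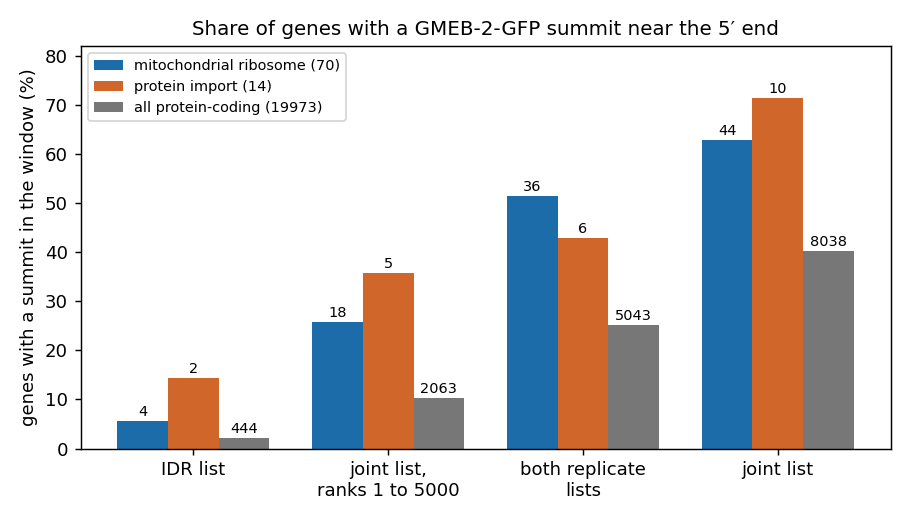
Share of genes (%, vertical axis) with a summit near the 5′ end in each peak list, for mitochondrial ribosome genes, import genes and all nuclear protein-coding genes, with the number of genes above each bar. In the IDR list the shares were 5.71%, 14.3% and 2.22%.

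When genes without a summit were placed below the end of the list, the median joint rank was 19698 for ribosome genes and 19927.5 for import genes. The median of all protein-coding genes fell below the end of the list, since fewer of them had any summit. The order of the classes depended on the list: in replicate 1 alone the medians were 17167.5 for ribosome and 21014 for import genes, and in replicate 2 alone 18344 and 12219.5. At the top of the joint list only ddp-1 ranked above the strongest ribosome gene, mrpl-23, and tomm-20 ranked below 3 ribosome genes. Among genes with a summit, the median joint signal was 43.4 for 44 ribosome genes, 47.8 for 10 import genes and 39.3 for 8038 protein-coding genes. Neither replicate list nor the joint list had a summit at 10 of 70 ribosome genes and 2 of 14 import genes (14.3% of each), against 41.5% of all genes.

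**Figure D2:**
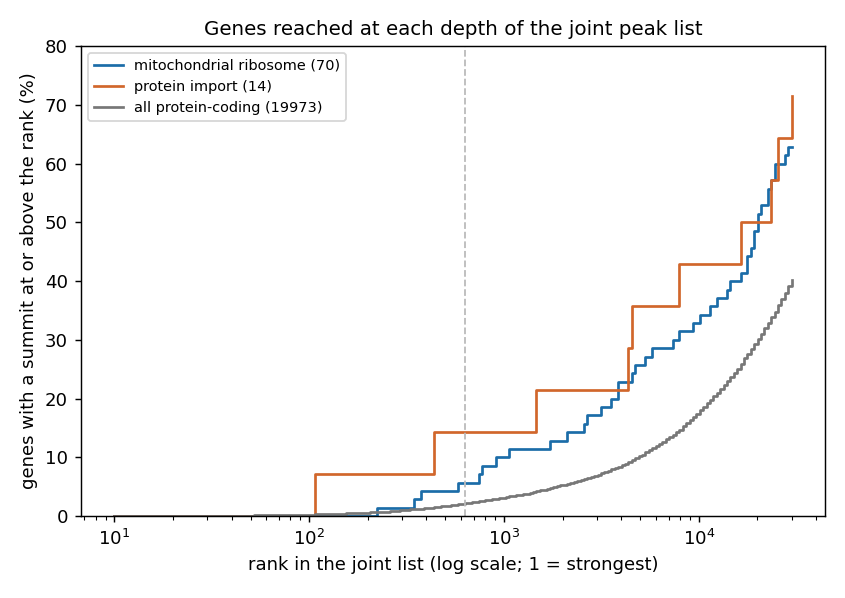
Cumulative share of genes (%, vertical axis) that have a summit at or above each rank of the joint list (horizontal log axis, 1 is the strongest). The dashed line marks rank 634, the end of the IDR list, and at rank 30000 the curves end at 71.4% (import), 62.9% (ribosome) and 40.2% (all protein-coding genes).

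The strongest peak of any member lay at ddp-1, which encodes a small TIM chaperone related to human TIMM8A. Its signal was 94.3 in replicate 1 and 145.7 in replicate 2, with ranks 109 and 115, and 237.6 at rank 107 in the joint and IDR lists. Both replicates thus placed it within a few ranks of the same position. By joint signal it was 59th among the 8038 protein-coding genes with a summit. The peak (III, 1859654 to 1859784) was intergenic and its summit stood 139 bp upstream of ddp-1 (gene 1859888 to 1860381, plus strand). The same summit lay in the window of ttc-7, and the same-strand gene hlh-33 ended 286 bp upstream of ddp-1.

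The gene tomm-20 encodes a receptor of the TOM complex that recognises precursor proteins. Its signal was 28.5 in replicate 1 (rank 2744) and 84.4 in replicate 2 (rank 308), and 113.2 in the joint list (rank 429). Here the replicates differed, and only replicate 2 placed tomm-20 within its 634 strongest peaks. The peak (V, 12343553 to 12343928) was intergenic, with its summit 272 bp upstream of tomm-20 (12342314 to 12343469, minus strand), and it lay in the window of no other protein-coding gene.

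Of the ribosome genes, mrpl-39, for a large subunit protein, had a summit 74 bp upstream of its 5′ end (peak V, 1821317 to 1821692; gene 1821579 to 1823096, plus strand). Its signal was 52.1 in replicate 1 (rank 349) and 81.4 in replicate 2 (rank 325), and 129.3 in the joint list (rank 337), so all lists placed it alike. The glycosyltransferase gene gly-7 starts 256 bp away on the other strand, and the summit lay in both windows. For mrpl-12, which encodes the stalk protein of the large subunit, the signal was 40.2 (rank 711) and 75.4 (rank 374) in replicates 1 and 2 and 123.2 in the joint list (rank 373). Its summit lay 513 bp upstream (peak III, 10707060 to 10707435; gene 10707761 to 10708521, plus strand), and the 5′ end of Y39A1A.22, which starts 733 bp upstream on the other strand, was nearer to it. The small subunit gene mrps-25 had signals of 39.5 (rank 751) and 56.9 (rank 700) in replicates 1 and 2 and 96.9 in the joint list (rank 571). Its summit lay 235 bp upstream (peak IV, 1056469 to 1056844; gene 1056892 to 1057619, plus strand), between mrps-25 and the head-to-head gene Y55F3AM.13. With rank 571, mrps-25 passed the IDR step although neither replicate placed it within its 634 strongest.

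The DNA under these summits is shown because 3 GC-rich words (ACGCGC, the overlapping GCGCAC, and also CGCGCA) were already known from earlier results to be frequent at the promoter peaks of these data. Each window has 201 bases centred on the joint summit, in the direction of the gene, from the RefSeq copy of WBcel235 (the assembly of ce11). Capitals mark the 3 words on either strand, which can overlap each other. The windows are chrIII:1859649-1859849 (ddp-1, plus strand), chrV:12343641-12343841 (tomm-20, minus), chrV:1821405-1821605 (mrpl-39, plus), chrIII:10707148-10707348 (mrpl-12, plus) and chrIV:1056557-1056757 (mrps-25, plus). Also shown are the strongest members just under the IDR list, chrIV:443764-443964 (mrpl-55, plus) and chrIII:1202259-1202459 (mrpl-45, minus).
ddp-1: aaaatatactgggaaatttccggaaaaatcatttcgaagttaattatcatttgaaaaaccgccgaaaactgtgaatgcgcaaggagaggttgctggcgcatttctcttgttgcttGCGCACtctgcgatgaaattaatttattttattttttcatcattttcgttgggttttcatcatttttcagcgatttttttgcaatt
tomm-20: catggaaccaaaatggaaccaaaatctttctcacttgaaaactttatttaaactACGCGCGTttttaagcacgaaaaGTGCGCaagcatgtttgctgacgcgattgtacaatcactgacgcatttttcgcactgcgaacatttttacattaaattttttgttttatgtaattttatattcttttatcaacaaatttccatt
mrpl-39: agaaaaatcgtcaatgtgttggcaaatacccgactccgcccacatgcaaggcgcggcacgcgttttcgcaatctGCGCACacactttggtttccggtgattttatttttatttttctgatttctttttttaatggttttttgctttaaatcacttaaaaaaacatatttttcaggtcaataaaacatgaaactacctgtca
mrpl-12: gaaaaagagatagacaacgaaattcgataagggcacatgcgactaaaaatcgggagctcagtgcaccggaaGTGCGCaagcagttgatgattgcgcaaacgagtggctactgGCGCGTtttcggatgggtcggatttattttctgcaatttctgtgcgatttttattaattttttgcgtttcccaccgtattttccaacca
mrps-25: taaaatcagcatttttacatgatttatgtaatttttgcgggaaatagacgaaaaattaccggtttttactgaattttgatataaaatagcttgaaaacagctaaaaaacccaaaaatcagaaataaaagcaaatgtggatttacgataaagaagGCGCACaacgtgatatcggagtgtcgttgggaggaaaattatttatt
mrpl-55: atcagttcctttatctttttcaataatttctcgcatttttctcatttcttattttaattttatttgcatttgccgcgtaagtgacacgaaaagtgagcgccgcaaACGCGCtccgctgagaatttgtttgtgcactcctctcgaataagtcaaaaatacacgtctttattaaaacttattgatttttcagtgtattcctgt
mrpl-45: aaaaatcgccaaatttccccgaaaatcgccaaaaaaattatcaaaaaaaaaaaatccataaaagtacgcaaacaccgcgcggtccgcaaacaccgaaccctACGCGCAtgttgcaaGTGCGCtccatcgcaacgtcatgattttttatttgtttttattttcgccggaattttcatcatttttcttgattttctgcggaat

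Each of these 7 windows held at least 1 of the 3 words, but this depends on which windows were shown. The window of the IDR member mrpl-23, not shown, held none, and neither did that of mrps-35, the next member after mrpl-45 by joint signal. The marked base nearest to the summit was 15 bp downstream of it for ddp-1, 18 bp upstream for tomm-20, 21 bp upstream for mrpl-39, 12 bp downstream for mrpl-12, 54 bp downstream for mrps-25, 5 bp downstream for mrpl-55 and 1 bp downstream for mrpl-45. In windows of the same length set at that distance from every protein-coding gene's 5′ end, 6.64% (mrpl-12) to 9.91% (ddp-1) held 1 of the words. Only GCGCAC, read on either strand, stood in all 5 of the printed IDR windows. The core word of the vertebrate GMEB site, TACGTA, stood in none of the 7 windows, and in 1.71% to 2.22% of the background windows at these offsets. These words were found on the IDR peaks, members included, so their presence at the members of that list is not independent evidence.

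Over the members of all ranks, at least 1 of the 3 words stood in 5 of 6 IDR windows, in 8 of 17 windows at joint ranks 635 to 5000 and in 8 of 32 at ranks 5001 to 30000. The same shares over peaks of all protein-coding genes were 49.4%, 22.5% and 12.4%. The members' shares (83.3% and 47.1% in the first groups) fell with rank in the same order. Median GC content of the members' windows was 35.6%, 34.8% and 37.8%, below the 44.3%, 41.8% and 38.8% of all genes' peaks.

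The remaining member of the IDR list was the large subunit gene mrpl-23, and its peak differed from the rest in place and content. Its signal was 52.1 in replicate 1 (rank 351) and 120.4 in replicate 2 (rank 169), and 166.9 in the joint list (rank 216). The summit lay 962 bp upstream of mrpl-23, near the edge of the window, in an intron of the same-strand gene fars-1, whose end is 96 bp from mrpl-23 (peak I, 6212659 to 6213034; gene 6211270 to 6211885, minus strand). A snoRNA gene, T08B2.13, lay within 200 bp of this summit, and none of the 3 words stood in its window. Of the 55 members with a joint summit, mrpl-4 was the only other one within 200 bp of a tRNA or snoRNA gene. Its summit, at joint rank 18300, lay 991 bp upstream in a coding exon of mrps-2, another member, which ends 106 bp upstream of mrpl-4 on the same strand.

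**Figure D3:**
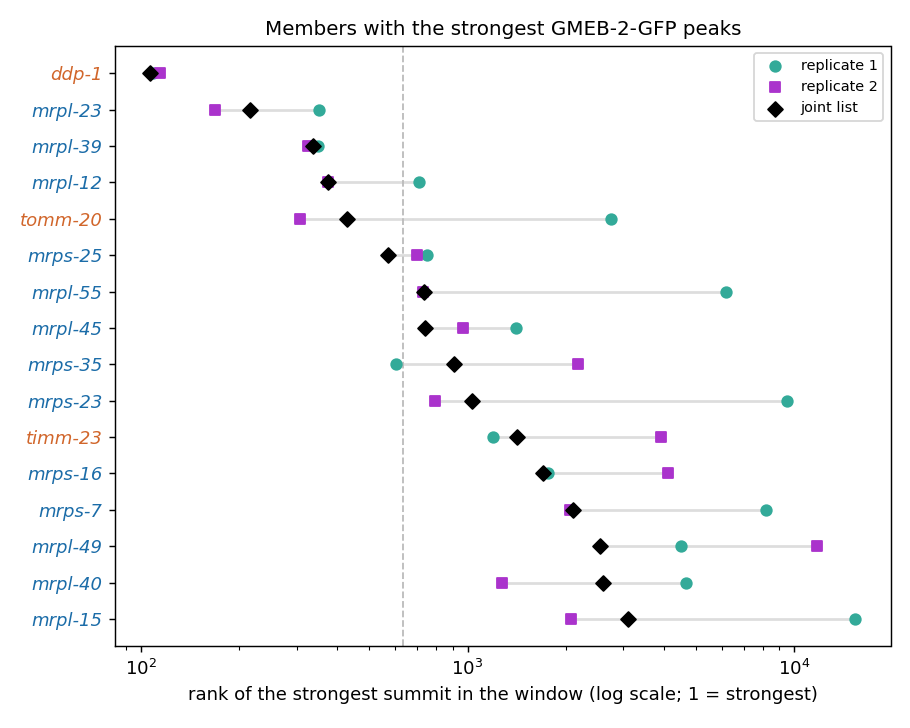
Rank of the strongest summit (horizontal log axis, 1 is the strongest) in replicate 1, replicate 2 and the joint list for the 6 members of the IDR list and the 10 next members by joint signal, with import genes in orange and ribosome genes in blue. The dashed line marks rank 634, and ddp-1 and mrpl-39 have nearly equal ranks in all 3 lists, while tomm-20 ranked 2744 in replicate 1 and 308 in replicate 2.

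Just below the IDR list came mrpl-55 (joint signal 85.6, rank 736) and mrpl-45 (85.4, rank 742), with mrps-25 just inside it at 96.9. For mrpl-55 the ranks were 6175 in replicate 1 and 733 in replicate 2, and for mrpl-45 they were 1408 and 970. The next small subunit genes were mrps-35 (joint rank 906, with 604 and 2170 in replicates 1 and 2) and mrps-23 (joint rank 1032, with 9471 and 796). Replicate 1 thus gave mrps-35 the higher place and replicate 2 gave it to mrps-23. The summit at mrps-35 lay in an untranslated exon of the opposite gene sws-1, 125 bp upstream. That at mrps-23 lay 159 bp upstream in an intron of prp-40, a gene for a splicing factor.

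Of the 10 members next by joint signal after the IDR list, the others were timm-23 (joint rank 1415), mrps-16 (1703), mrps-7 (2104), mrpl-49 (2535), mrpl-40 (2590) and mrpl-15 (3100). Their summits lay 128 bp (mrpl-40) to 693 bp (mrpl-15) upstream. The intergenic summit at mrpl-49 also lay in the window of rpl-28, which encodes a protein of the cytosolic large ribosomal subunit and starts 519 bp away on the other strand. Of all 85 members, 3 were within the 634 strongest peaks of both replicates, namely ddp-1, mrpl-23 and mrpl-39, against 1.48% of all protein-coding genes.

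Among the 5 outer membrane genes, tomm-20 led. The small subunit gene of the TOM complex, tomm-7, ranked 4274 in the joint list at a signal of 52.0, with rank 1675 in replicate 2 and no summit in replicate 1. Its summit lay 922 bp upstream, nearer to coq-5 and ufm-1, and ufm-1 ends 101 bp upstream of tomm-7 on the same strand. The channel gene tomm-40 had a joint signal of 44.1 (rank 7946), with ranks 27252 and 16974 in replicates 1 and 2. The receptor gene tomm-70 had 29.2 (rank 24593), with no summit in replicate 2, and the receptor gene tomm-22 had no summit in any list. Genes of 1 complex therefore ranged from rank 429 to no summit.

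Of the 4 TIM23 complex genes none had an IDR summit, where 2.22% of all protein-coding genes had one. A joint summit lay within rank 5000 at 2 of the 4 and at any rank at 3, against 10.3% and 40.2% of all genes. The channel subunit gene timm-23 had a joint signal of 69.4 (rank 1415), with 34.6 in replicate 1 (rank 1194) and 35.9 in replicate 2 (rank 3896). The relatives of Tim17 were timm-17B.1, at joint rank 4485 with no summit in replicate 1, and timm-17B.2, at joint rank 16400 with no summit in replicate 2. No list had a summit at tin-44, for the subunit that tethers the import motor. Of the other small TIM genes, tin-9.1 and tin-9.2 had joint ranks of 23455 and 29243, near the end of the list. Neither tin-13 nor tin-10 had a joint summit, with 1 replicate summit each, at rank 5224 in replicate 1 and rank 16321 in replicate 2. Among the small TIM genes ddp-1 thus stood alone above rank 5000 in the joint list.

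The 2 ribosomal subunits were set side by side, with no test of the difference between them. An IDR summit lay at 1 of 29 small subunit genes (3.45%) and 3 of 41 large subunit genes (7.32%), a joint summit within rank 5000 at 8 (27.6%) and 10 (24.4%), and any joint summit at 18 (62.1%) and 26 (63.4%). Over all nuclear protein-coding genes these shares were 2.22%, 10.3% and 40.2%. The IDR share of the small subunit rests on 1 gene. Within the 634 strongest peaks of both replicates were 0 small and 2 large subunit genes, against 1.48% of all protein-coding genes. The median joint signal of those with a summit was 44.5 and 43.4. The 26 ribosome genes with a summit below rank 5000 had joint ranks from 5283 (mrps-31) to 28181 (mrpl-36). No joint summit lay at 26 ribosome genes. Those with no summit in any list were mrps-2, mrps-14, mrps-27, mrpl-13, mrpl-16, mrpl-17, mrpl-21, mrpl-24, mrpl-48 and mrpl-51.

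Joint summits lay mostly upstream of the 5′ ends, in 35 of 44 ribosome genes and 9 of 10 import genes, as they did in 5704 of 8038 protein-coding genes. The window reached 1000 bp upstream and only 500 bp downstream, so its shape alone favours upstream summits and negative offsets. The median offset was -168 bp for ribosome genes (quartiles -483 and -67.3 bp), -297 bp for import genes (-563.5 and -170.5 bp) and -210 bp for all protein-coding genes (-543 and 56 bp). By annotation 27 of the 44 ribosome summits and 7 of the 10 import summits were intergenic. Coding exons held 11 and 2, introns 4 and 1, and untranslated exons 2 and 0. In 19 ribosome and 4 import genes the summit also lay in the window of another protein-coding gene, so the peak cannot be assigned to the member alone. Neither these placements nor the shared windows were counted over all protein-coding genes. They describe the members only, and whether they differ from other genes is unknown.

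**Figure D4:**
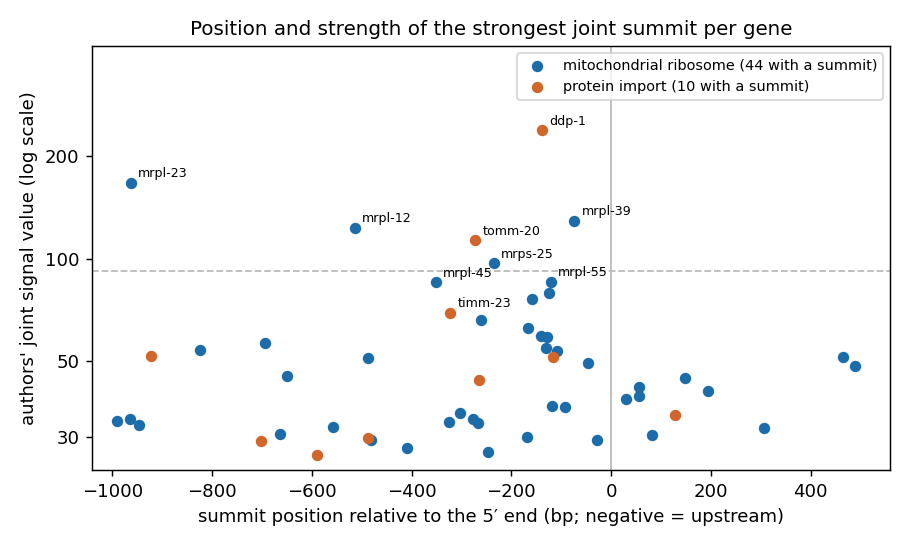
Position of each gene's strongest joint summit relative to its 5′ end (horizontal axis, bp, negative is upstream) and its joint signal (vertical log axis), for 44 ribosome and 10 import genes. The dashed line marks the lowest signal of the IDR list, 91.8, and all 6 members above it have their summits upstream, from 74 bp (mrpl-39) to 962 bp (mrpl-23). The window reaches further upstream (1000 bp) than downstream (500 bp).

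The members' arrangement on the chromosomes was measured because many worm genes are transcribed in operons, in which a downstream gene usually has no promoter of its own. No operon annotation was used, so a same-strand gene ending close upstream describes the arrangement only and does not mark an operon. A same-strand gene ended within 500 bp upstream of 27 of 70 ribosome genes (38.6%) and 5 of 14 import genes (35.7%), against 18.1% of all protein-coding genes. Of these 27 ribosome genes 2 (7.41%) had a joint summit within rank 5000, and of the other 43 there were 16 (37.2%). Over all genes these shares were 9.35% and 10.5%. For import the counts within rank 5000 went the other way, at 3 of 5 and 2 of 9. A joint summit of any rank lay at 13 of the 27 ribosome genes (48.1%) and 31 of the 43 (72.1%). All genes gave 40.5% and 40.2%. For import genes it lay at 3 of 5 and 7 of 9. An opposite-strand 5′ end lay within 1000 bp upstream of 26 ribosome genes (37.1%) and 1 import gene (7.14%), against 17.7% of all genes. Ribosome genes with such a neighbour had a joint summit within rank 5000 in 11 of 26 cases (42.3%), and those without in 7 of 44 (15.9%), where all genes gave 17.7% and 8.74%.

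The members were spread unevenly over chromosomes, with 27 on III, 18 on I, 15 on IV, 14 on II, 11 on V and 0 on X. Chromosome III held 31.8% of the members and 13.2% of protein-coding genes. Of its 27 members 9 had a joint summit within rank 5000, a call made at 15.3% of all protein-coding genes on III. On II it was 1 of 14, where all genes gave 11.3%. The counts were 5 of 18 on I, 4 of 15 on IV and 4 of 11 on V. All genes on these chromosomes gave 13.7%, 8.66% and 6.65%. The part of chromosome in the members' shares was not tested.

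The replicates were compared over the 43 members with a summit in both lists. In 25 of them (58.1%) the strongest summits of the replicates lay within 200 bp of each other, against 57.5% of the 5043 protein-coding genes with a summit in both. For these genes a summit in both lists therefore did not always mean the same position. Spearman's rho between the replicates' signals was 0.554 over the 43 members and 0.482 over the 25. It is given as a description, since members share the libraries and the genes were not drawn independently.

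Further genes of the same pathways were read in the same way. Of 19 genes for partners of import and inner membrane upkeep, 2 had an IDR summit, against 2.22% of all protein-coding genes. The first was hsp-60, the matrix chaperonin (joint signal 198.7, rank 161, with ranks 250 and 125 in replicates 1 and 2). The second was mtx-1, a metaxin of the outer membrane (105.0, rank 484, with 1065 and 489). Their joint summits had offsets of -620 bp (hsp-60) and -438 bp (mtx-1). Another 2, the matrix chaperone hsp-6 and the crista gene immt-1, had a joint summit within rank 5000, at ranks 4715 and 4808. A joint summit of any rank lay at 10 of the 19, against 40.2% of all protein-coding genes, and one within rank 5000 at 4, against 10.3%. Those without included the processing peptidase gene mppa-1 and the prohibitin gene phb-1.

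A list of 19 genes for mitochondrial translation and DNA upkeep was written, but the symbols mars-2 and wars-2 did not match the annotation. Of the other 17 genes, 2 had an IDR summit. These were ears-2, the mitochondrial glutamyl-tRNA synthetase (joint signal 454.5, rank 18, with ranks 23 and 19 in replicates 1 and 2), and mtss-1, the mitochondrial single-stranded DNA-binding protein (185.1, rank 187, with 261 and 196). The elongation factor gene gfm-1 (rank 790) and the DNA polymerase gene polg-1 (rank 2469) were also within rank 5000. The signal at ears-2 was above that of every member. The joint summits had offsets of -41 bp at ears-2 and -203 bp at mtss-1. In all, 13 of the 17 had a joint summit and 4 had one within rank 5000, where all protein-coding genes gave 40.2% and 10.3%. For the IDR list that share was 2.22%. Both lists were written with earlier results of these data known. Shared windows and nearby tRNA or snoRNA genes were not looked up for either list, so these peaks cannot be assigned to the listed genes alone.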

How the data were processed

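The authors made, per the labels and a file listing, peak lists on ce11 for each of 2 replicates, for both together, and after an IDR step. The deposited signal of each peak is the authors' value against a control. Not given in the sources used here were the peak caller, the aligner and the IDR cutoff. The ce10 lists were not used. Members and gene lists were chosen with earlier results of these data known. Summits were placed 1-based, and 5′ ends are those of Ensembl 115 gene records, whose assembly WBcel235 is that of ce11. Ranks, counts and medians were computed with Python 3.11.15, pandas 2.3.3 and numpy 2.4.6. The window search was run on simulated summits planted inside its own windows. That run checks the search code only, not the reading of the peak lists or the assignment of real peaks. No test was run, because there was 1 group and genes are not replicates. Text names all members in the IDR list, the next 10 by joint signal, import genes by complex and ribosome genes without any summit. The remaining genes named, such as neighbours, mrpl-4 and the pathway partners singled out, were picked with their values in view. Words were searched on both strands.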

Additional observations from a re-analysis of the deposited data

How the results depend on the processing

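No paired analysis was possible because the samples form 1 group. With the 317 strongest IDR peaks, 1 import and 1 ribosome gene had a summit (ddp-1 and mrpl-23). The IDR count of ribosome genes was 7 when any overlap of the peak interval with the window counted and 2 with 500 bp to either side, and that of import genes was 1 without genes close behind a same-strand gene. With the strongest 634 peaks of 1 replicate alone the IDR count was 1 to 2 for import genes, 1 without replicate 2, and 3 for ribosome genes either way. Those peaks lay at 2.02% (replicate 1) and 2.19% (replicate 2) of all protein-coding genes. Without peaks near tRNA and snoRNA genes 3 ribosome genes kept an IDR summit. Except where printed, the share of all protein-coding genes is not given for the changed settings, here or below. Those counts show only how the members' own numbers moved, not their standing against the background.

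Within ranks 1 to 5000, the joint list reached 18 ribosome and 5 import genes, and both replicate lists 9 and 3. Any pair of summits from the 2 replicates, not only the strongest of each, within 200 bp of each other lay at 23 ribosome and 5 import genes. The strongest summits did so at 20 and 5. A summit in both lists lay at 25 ribosome and 6 import genes with no downstream part. With the nearest 5′ end only the counts were 25 and 5, and with 500 bp to either side 29 and 4. The order of the classes in this count thus depended on the setting. The median joint rank of ribosome genes was 18697 with all transcripts' 5′ ends, 27534 with the nearest 5′ end only, 14398 by interval overlap, 25491 with no downstream part, 25523 with 500 bp to either side, 14027 without genes close behind a same-strand gene, and 17167.5 to 18344 in single replicates. For import genes it was 13042.5 by interval overlap and 12219.5 to 21014 in single replicates. It was 24024 both with the nearest 5′ end only and with no downstream part. Without genes close behind a same-strand gene it was 23455, and with tim-1 counted as import 16400. With all transcripts' 5′ ends it stayed at 19927.5. With 500 bp to either side fewer than the needed number of import genes had a summit, and no median was had. Import stayed above ribosome in IDR share in these settings but not in median rank. The settings reuse the same peaks, and the import count was 1 or 2 genes in each. As 1 import gene is 7.14% of its class, it alone exceeds the ribosome share of 5.71% in the main setting. The kept order is therefore no evidence of a class difference. The depth is unknown, so whether missing summits reflect depth was not tested.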

Other observations

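In the printed windows of ddp-1, tomm-20 and mrpl-12 the letters TGCGCAA (or TTGCGCA on the other strand) recur. This word was chosen after the windows were seen and is given as a count only. It stood in the windows of both import genes and 1 of 4 ribosome genes of the IDR list, in 11.1% of the IDR peaks of all protein-coding genes, and in 1 of 17 members' windows at joint ranks 635 to 5000 against 2.09%. At ranks 5001 to 30000 it stood in 0 of 32 members' windows, against 1.73%.

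The member that belongs to neither class, tim-1, had a joint summit 209 bp upstream of its 5′ end at rank 8674 with a signal of 43.1. Its ranks were 9348 in replicate 1 and 1905 in replicate 2.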
